A study of Mus musculus with 12 samples.

Results

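The Notch pathway genes described here are 4 receptors (Notch1, Notch2, Notch3 and Notch4), 4 ligands (Jag1, Jag2, Dll1 and Dll4) and 2 target genes (Hes1 and Hey1). They were taken as a list of named genes, each represented by its brightest probe set that carries a single gene symbol, and all 10 were found among the 22180 genes with such a probe set. The prostates of male, hormone-naïve mice of wild-type genotype gave 12 libraries, sorted without cells that carry CD45 (blood cells), CD31 (endothelium) or Ter119 (red blood cells). Sca1-high cells were taken from a gate high in the surface protein Sca1 and positive for the integrin CD49f, basal cells from a gate of intermediate Sca1 and positive CD49f, and luminal cells from a gate low in both. Each of the 3 gates was divided by the surface protein LY6D into LY6D+ and LY6D- cells, which gave 6 groups of 2 libraries. Mouse 5 contributed 1 library to each of the 6 groups, and the other library of a group came from mouse 1 (Sca1-high), mouse 3 (basal) or mouse 4 (luminal). Age and strain were not given in the sources used here. Amplified RNA was hybridised to arrays, and all values are deposited log2 signals, on which a difference of 1 is a doubling. Where 4 values are given for a gate, the LY6D+ libraries come before the LY6D- ones and mouse 5 is second in each pair. Signals of different genes come from different probe sets and were not compared with each other.

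Notch receptors are single-pass membrane proteins that are activated by ligands of the Jagged and Delta-like families on a neighbouring cell. Ligand binding exposes the receptor to cleavage by ADAM proteases and then by gamma-secretase, and the freed intracellular domain joins the DNA-binding protein RBPJ to switch on targets such as the HES and HEY repressors. In epithelia with basal and luminal layers, including that of the prostate, the pathway is known for its part in the choice between basal and luminal fates, and in blood vessels DLL4 is an endothelial ligand that acts in sprouting.

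The upstream sequences are shown for Jag1, Dll1 and Dll4, because these were the 3 members with a gate in which all 4 libraries lay above all 4 luminal libraries. Each is the run of 250 bases before the RefSeq gene start in GRCm38.p6, read 5′ to 3′ on the gene's strand: chr2:137116521-137116770 on the minus strand for Jag1, chr17:15376933-15377182 on the minus strand for Dll1, and chr2:119325534-119325783 on the plus strand for Dll4. All letters are in lower case because no searched motif was matched.
Jag1: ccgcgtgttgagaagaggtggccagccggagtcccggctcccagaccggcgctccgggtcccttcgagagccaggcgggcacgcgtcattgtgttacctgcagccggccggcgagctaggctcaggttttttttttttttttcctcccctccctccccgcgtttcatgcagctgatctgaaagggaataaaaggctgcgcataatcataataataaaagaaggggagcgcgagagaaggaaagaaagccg
Dll1: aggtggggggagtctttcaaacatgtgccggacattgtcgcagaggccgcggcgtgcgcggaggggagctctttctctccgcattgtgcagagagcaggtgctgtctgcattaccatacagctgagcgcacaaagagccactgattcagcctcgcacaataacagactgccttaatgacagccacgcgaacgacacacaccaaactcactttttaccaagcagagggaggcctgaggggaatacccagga
Dll4: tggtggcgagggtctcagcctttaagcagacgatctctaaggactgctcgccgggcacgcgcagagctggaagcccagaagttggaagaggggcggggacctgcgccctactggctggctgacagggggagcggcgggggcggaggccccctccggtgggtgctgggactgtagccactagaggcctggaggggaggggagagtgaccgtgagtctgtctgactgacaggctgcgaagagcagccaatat
RefSeq's promoter table held 9 such windows for 8 of the 10 members (Dll1 had 2); Hes1 and Hey1 had none. Both strands were searched for GTGGGAA, a core form of the RBPJ motif. Its shorter form, which lies within it and is spelled TGGGAA, was searched as well, as was the E-box that HES and HEY proteins can bind, spelled CACGTG. None of the 3 was in the windows of the 8 members. Of the 32851 windows of this length, 5.42% held the first motif, 21.6% its shorter form and 6.02% the E-box. That says only that these letters were not in these windows.

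The labelled gates were compared with marker genes. Markers of basal epithelium, as a mean over the 10 measured, lay between 5.93 and 6.93 in Sca1-high, between 6.93 and 8.35 in basal and between 5.11 and 6.66 in luminal libraries. Luminal epithelial markers (10 measured) lay between 6.48 and 8.10, between 7.19 and 8.31 and between 8.25 and 8.84 in the same 3 gates. The library labelled Sca1-high LY6D+ of mouse 5 held the 6.48, had the keratin Krt18 at 5.30 against 10.02 to 11.60 in the other 11 libraries, and had the lowest median correlation with the other libraries (0.807). Markers of other cell types were also measured in the gates. The mean of 16 endothelial markers was 5.40 to 6.88 in Sca1-high, 4.33 to 6.43 in basal and 4.24 to 4.59 in luminal libraries. Among them Pecam1 (which encodes CD31) was 6.84 to 9.58, 5.70 to 8.62 and 4.43 to 5.73 in the same 3 gates. The mean of 10 myeloid markers was 4.50 to 6.45, 4.16 to 5.00 and 6.81 to 8.40. Ly6d signal ran against the LY6D labels in 3 of 6 pairs. In Sca1-high cells of mouse 5 it was 4.70 in the LY6D+ and 7.37 in the LY6D- library. In basal cells of mouse 5 it was 5.96 and 6.03, and in luminal cells of mouse 4 it was 4.81 and 5.11, in the LY6D+ and the LY6D- library. Itga6, which encodes CD49f, was 6.07 to 7.93 in Sca1-high, 7.44 to 9.15 in basal and 5.97 to 7.01 in luminal libraries. Its Sca1-high and luminal libraries thus overlapped, although the labels set these gates apart by CD49f. Ly6a, which encodes Sca1, was not analysed here. The basal LY6D+, basal LY6D- and luminal LY6D- libraries of mouse 5 had 18009, 17859 and 17585 genes whose signal exceeded the table's lower quartile, and the other 9 had 18536 or more. In sorted pools, fewer cells of a type and less RNA per cell cannot be told apart.

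The members with the lowest p-values between gates were ligands, but no member passed the test. Jag1 was highest in basal cells, at 6.62 times its luminal signal, Dll1 was higher in both Sca1-high and basal than in luminal cells, by 1.59 and 1.76 times, and Dll4 was highest in Sca1-high cells, at 1.75 times its luminal and 1.82 times its basal signal. With limma and Benjamini-Hochberg adjustment over the 20135 genes tested, 0 of 10 members had an adjusted p under 0.05 in Sca1-high against luminal cells, where 0.139% of all genes did, and 3 of 10 had an unadjusted p under 0.05, against 8.41% of all genes. In basal against luminal cells 0 of 10 were called against 0.417% of all genes, and 2 of 10 against 9.44% had an unadjusted p under 0.05. In Sca1-high against basal cells 0 of 10 were called against 0.00993% of all genes, and 3 of 10 against 9.83% had an unadjusted p under 0.05. Each gate enters 2 of these 3 comparisons, so they are not independent of each other. A limma F test of any difference among the 6 groups also called 0 of 10, against 0.0348% of all genes, with 2 of 10 at an unadjusted p under 0.05 against 5.66% of all genes; the lowest adjusted p was 0.255, for Dll4. The median difference of the 10 members was 0.27 for Sca1-high minus luminal, 0.16 for basal minus luminal and -0.14 for Sca1-high minus basal, against 0.07, -0.03 and 0.11 over all genes.

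**Figure D1:**
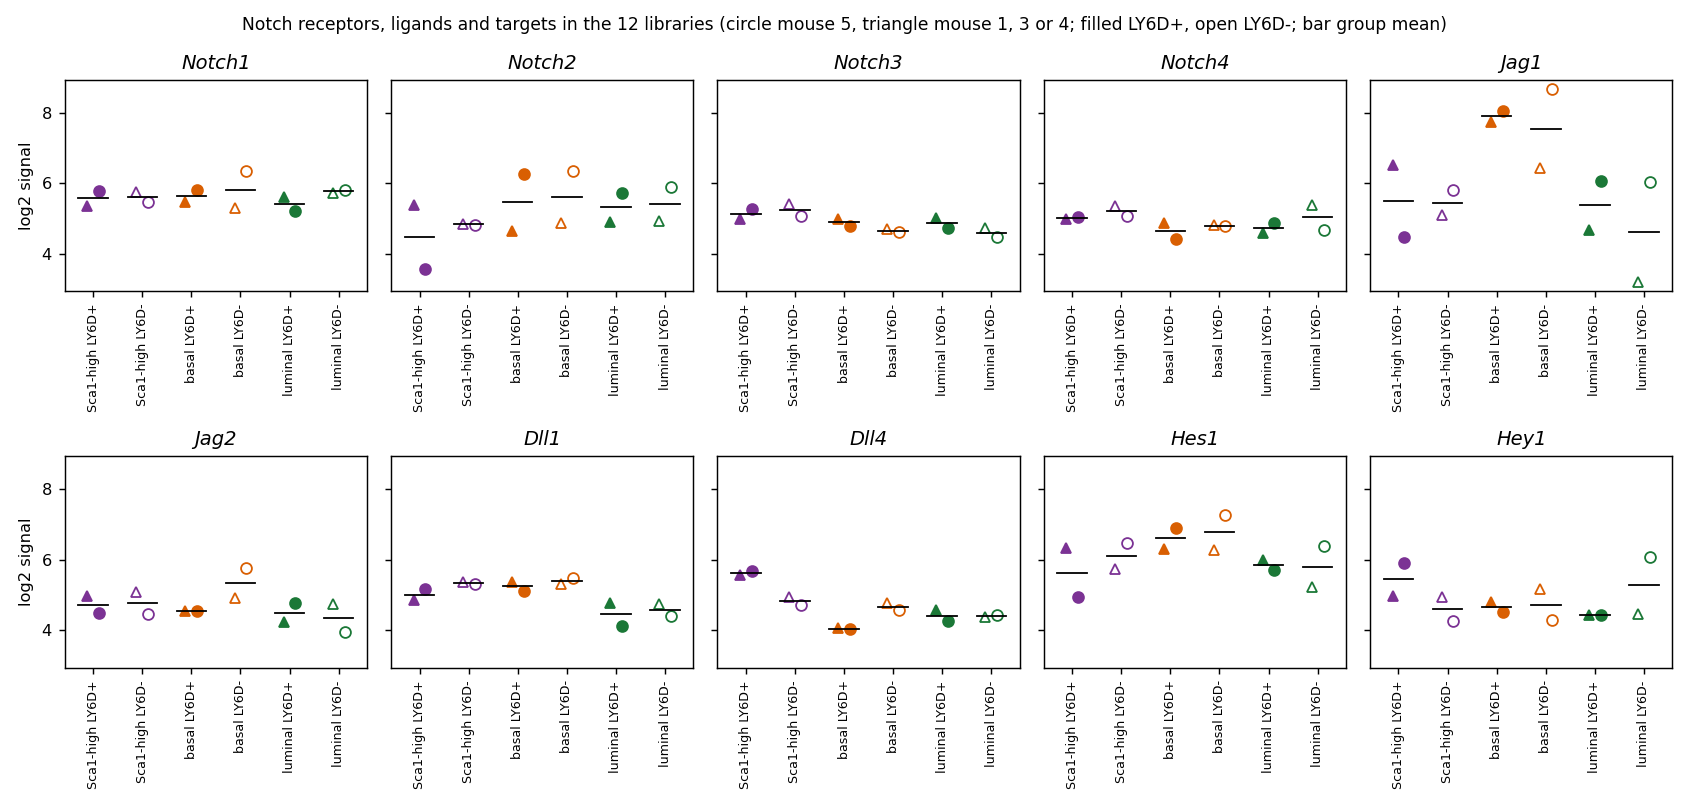
Deposited log2 signal (vertical axis) of the 10 members in each of the 6 groups (horizontal axis), 1 panel per gene; circles are mouse 5, triangles the other mouse of the gate, filled symbols LY6D+, open symbols LY6D-, and bars group means. The 4 basal libraries of Jag1 (6.43 to 8.67) lie above the 4 luminal ones (3.21 to 6.07), and the Sca1-high LY6D+ libraries of Dll4 (5.56 and 5.68) lie above all others.

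Of the receptors, Notch1 was the most even across the gates. It averaged 5.60 ± 0.20 in Sca1-high, 5.73 ± 0.46 in basal and 5.59 ± 0.27 in luminal libraries (SD, n = 4 each). Its highest library was basal LY6D- of mouse 5, at 6.34, and its lowest luminal LY6D+ of mouse 5, at 5.21, so the gates overlapped throughout. Notch2, a receptor with wide expression in epithelia, varied more: it was 5.40 and 3.57 in Sca1-high LY6D+, 4.86 and 4.83 in Sca1-high LY6D-, 4.65 and 6.28 in basal LY6D+, 4.87 and 6.36 in basal LY6D-, 4.90 and 5.73 in luminal LY6D+, and 4.92 and 5.90 in luminal LY6D- libraries, with mouse 5 second in each pair. In basal and luminal cells the library of mouse 5 was the higher of each pair, and in Sca1-high LY6D+ cells it was the lowest of all 12. The Notch2 difference was -0.88 ± 0.54 (SE) for Sca1-high minus basal and -0.70 ± 0.54 for Sca1-high minus luminal, with limma adjusted p of 0.582 and 0.75. Without the basal LY6D+, basal LY6D- and luminal LY6D- libraries of mouse 5 the first was -0.10, and without the Sca1-high libraries of mouse 5 it was -0.41. With mouse as a fixed block, where gates can be compared only through mouse 5, it was -2.12 with a limma adjusted p of 0.0927.

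Notch3, a receptor best known from smooth muscle and pericytes, was 5.00, 5.26, 5.42 and 5.06 in Sca1-high, 4.98, 4.80, 4.71 and 4.61 in basal, and 5.01, 4.72, 4.73 and 4.47 in luminal libraries. All 4 Sca1-high libraries were above all 4 basal ones, while 1 luminal library reached the lowest Sca1-high value. The differences were 0.41 ± 0.18 for Sca1-high minus basal and 0.45 ± 0.18 for Sca1-high minus luminal (SE), with limma adjusted p of 0.504 and 0.549. Notch4, an endothelial receptor, was 4.99, 5.04, 5.36 and 5.07 in Sca1-high and 4.88, 4.43, 4.81 and 4.78 in basal libraries, again without overlap, and 4.60 to 5.40 in luminal libraries. Its Sca1-high minus basal difference was 0.39 ± 0.21 with a limma adjusted p of 0.559. Notch3 and Notch4 were the 2 of 10 members whose 4 Sca1-high libraries all lay above the 4 basal ones, a pattern held by 4.77% of all genes; 0 of 10 had all 4 below, against 2.26% of all genes. Both differences were small, and the SD of Notch3 over the 12 libraries was larger than that of 25.4% of the genes tested. Smooth muscle and pericyte markers (10 measured) averaged 5.07 to 5.45 in Sca1-high, 4.56 to 5.10 in basal and 4.90 to 5.62 in luminal libraries, and 16 endothelial markers 5.40 to 6.88, 4.33 to 6.43 and 4.24 to 4.59; their part in the Notch3 and Notch4 differences was not tested.

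**Figure D2:**
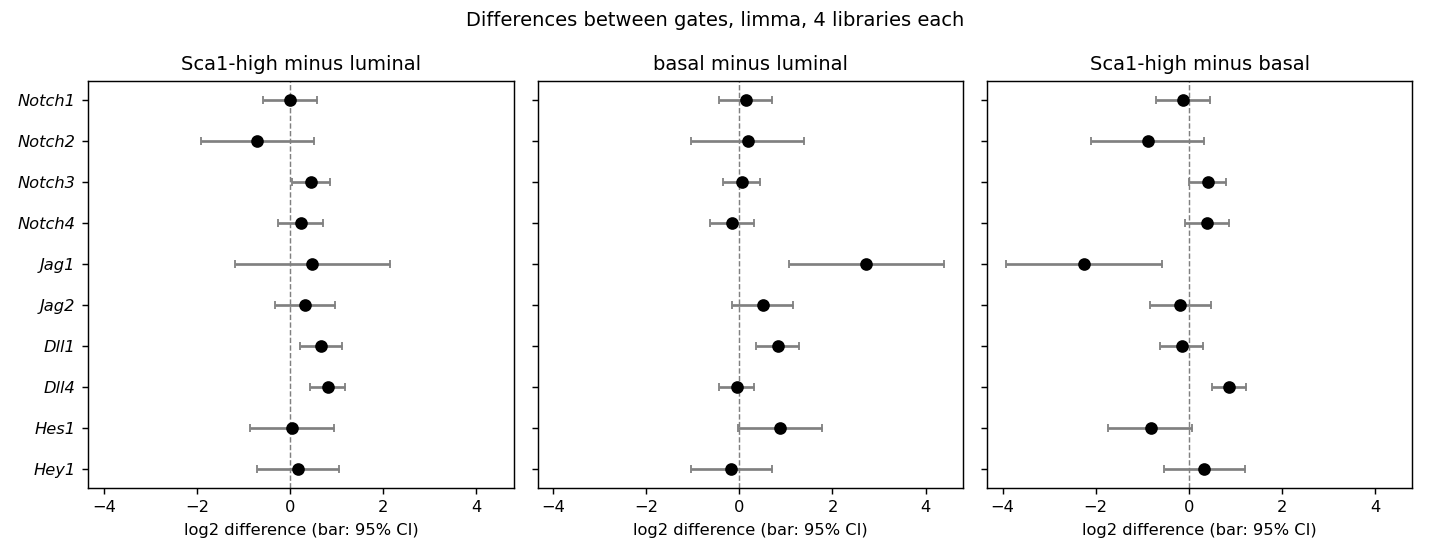
Differences between gates in log2 signal (horizontal axis) for the 10 members (rows), with points for the limma estimate and bars for its 95% confidence interval, 4 libraries per gate. Jag1 is at 2.73 in basal minus luminal and -2.25 in Sca1-high minus basal, and Dll4 at 0.81 and 0.87 in the 2 Sca1-high panels.

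Jag1, the Jagged ligand known in basal cells of layered epithelia, was the most variable member, with an SD over the 12 libraries larger than that of 98.4% of the genes tested. Its signal was 6.51 and 4.49 in Sca1-high LY6D+ and 5.10 and 5.81 in Sca1-high LY6D- libraries. It was 7.75 and 8.06 in basal LY6D+ and 6.43 and 8.67 in basal LY6D- libraries. It was 4.68 and 6.07 in luminal LY6D+ and 3.21 and 6.03 in luminal LY6D- libraries. Basal libraries were thus all above the luminal ones and overlapped the Sca1-high ones by a single library, basal LY6D- of mouse 3. The basal minus luminal difference was 2.73 ± 0.74 (SE; 95% interval 1.06 to 4.39), or 6.62-fold with an interval of 2.08 to 21.0, and its limma adjusted p was 0.228. The Sca1-high minus basal difference was -2.25 ± 0.74 with a limma adjusted p of 0.394. The Sca1-high minus luminal difference was 0.48 ± 0.74 with an interval of -1.19 to 2.14, and it turned to -0.90 with mouse as a fixed block. Leaving out each library in turn kept the basal minus luminal difference between 2.02 and 3.43, the lower value being without luminal LY6D- of mouse 4, and gave a lowest adjusted p of 0.0981.

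Jag2, the other Jagged ligand, was 4.96, 4.48, 5.07 and 4.46 in Sca1-high libraries, 4.54, 4.53, 4.90 and 5.76 in basal libraries and 4.23, 4.77, 4.75 and 3.95 in luminal libraries. The gates overlapped, and its largest difference between gates was 0.50 ± 0.29 for basal minus luminal, with a limma adjusted p of 0.695.

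Dll1, a Delta-like ligand, was 4.85, 5.16, 5.37 and 5.31 in Sca1-high libraries, 5.36, 5.12, 5.32 and 5.49 in basal libraries and 4.77, 4.13, 4.73 and 4.39 in luminal libraries. The 4 luminal libraries were the 4 lowest of the 12, and Sca1-high and basal libraries overlapped. The difference from luminal cells was 0.67 ± 0.20 in Sca1-high and 0.82 ± 0.20 in basal cells (SE), with limma adjusted p of 0.399 and 0.177. Its other probe set was dimmer, between 3.33 and 4.41, and correlated with the main one at 0.551 over 12 libraries. There the luminal libraries overlapped both other gates. Luminal LY6D- of mouse 4 (4.21) lay above Sca1-high LY6D+ of mouse 1 (3.59) and basal LY6D+ of mouse 3 (3.8). With the mean of both probe sets, the differences were 0.52 and 0.54. Myeloid markers (10 measured) averaged 4.50 to 6.45 in Sca1-high, 4.16 to 5.00 in basal and 6.81 to 8.40 in luminal libraries, and their mean correlated with Dll1 at -0.867 over the 12 libraries, which share gates and mice. Among these markers Ptprc, which encodes CD45, was 3.86 to 4.53 in Sca1-high, 3.25 to 3.76 in basal and 4.04 to 8.90 in luminal libraries, although CD45-positive cells were sorted away. Of the other marker lists, the endothelial (0.609) and luminal epithelial (-0.53) means came next in correlation with Dll1. The part of any of these markers in the Dll1 difference was not tested.

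Dll4, the Delta-like ligand of sprouting endothelium, was 5.56 and 5.68 in Sca1-high LY6D+ and 4.93 and 4.71 in Sca1-high LY6D- libraries. It was 4.05 and 4.03 in basal LY6D+ and 4.76 and 4.56 in basal LY6D- libraries, and 4.56, 4.26, 4.38 and 4.43 in luminal libraries. All Sca1-high libraries were above all luminal ones, and the lowest Sca1-high value was below the highest basal one by a small margin. The difference was 0.81 ± 0.17 for Sca1-high minus luminal (1.75-fold, 95% interval 1.35 to 2.27) and 0.87 ± 0.17 for Sca1-high minus basal (1.82-fold, interval 1.41 to 2.36), with limma adjusted p of 0.142 and 0.193. Leaving out each library in turn kept the first between 0.73 and 0.89 and the second between 0.81 and 0.92, with a lowest adjusted p of 0.0788. Without both Sca1-high libraries of mouse 5 the differences were 0.83 and 0.89. Another probe set, annotated to both Dll4 and Gm14207, correlated with the one used at 0.332 over the 12 libraries and gave smaller differences. It averaged 4.97 in Sca1-high, 4.68 in basal and 4.60 in luminal libraries, which is 0.38 for Sca1-high minus luminal and 0.29 for Sca1-high minus basal. Its gates overlapped, with 1 luminal library (5.33) above 3 of the 4 Sca1-high ones. The mean of the 16 endothelial markers was 5.40, 6.88, 6.67 and 5.59 in Sca1-high libraries, 4.33 and 4.44 in basal LY6D+, 6.43 and 6.35 in basal LY6D- and 4.24 to 4.59 in luminal libraries, although CD31-positive cells were sorted away. In each library 12 to 16 of these 16 markers lay above the table median of 3.90. Dll4 and this mean correlated at 0.686 over the 12 libraries. Dll4 also correlated with the luminal epithelial (-0.63), fibroblast (0.628) and smooth muscle and pericyte (0.518) marker means. The part of endothelial or other RNA in the Dll4 differences was not tested.

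Dll1 and Dll4 were the 2 of 10 members with all 4 Sca1-high libraries above the 4 luminal ones, against 3.57% of all genes, and 0 of 10 had all 4 below, against 2.48%. Jag1 and Dll1 were the 2 of 10 with all 4 basal libraries above the 4 luminal ones, against 2.58% of all genes, and 0 of 10 had all 4 below, against 3.17%. These counts rest on the probe set used for each gene, and the other probe sets of Dll1 and Dll4 overlapped between these gates.

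Hes1 and Hey1 encode repressors that are switched on by Notch in many tissues. Hes1 was 6.32, 4.93, 5.74 and 6.47 in Sca1-high libraries, 6.31, 6.90, 6.27 and 7.28 in basal libraries and 5.98, 5.71, 5.23 and 6.38 in luminal libraries. Basal libraries held the highest values but overlapped both other gates. The Hes1 difference was 0.87 ± 0.40 in basal minus luminal and -0.82 ± 0.40 in Sca1-high minus basal (SE), with limma adjusted p of 0.555 and 0.532. It was 0.04 ± 0.40 in Sca1-high minus luminal with an interval of -0.86 to 0.95, and turned to -0.04 after median centring and to -0.34 with mouse as a fixed block. Without those 3 libraries of mouse 5, the Sca1-high minus basal difference was -0.42. Hey1 was 4.97, 5.91, 4.94 and 4.27 in Sca1-high, 4.79, 4.52, 5.16 and 4.28 in basal, and 4.42, 4.44, 4.46 and 6.08 in luminal libraries. The gates overlapped, with 1 library well above the rest in Sca1-high (LY6D+ of mouse 5) and in luminal cells (LY6D- of mouse 5), and its largest gate difference was 0.33 ± 0.39 for Sca1-high minus basal, with a limma adjusted p of 0.76. It was 0.10 without Sca1-high LY6D+ of mouse 5 and at most 0.57 with any other library left out.

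Within gates, no member passed the test between LY6D+ and LY6D- cells. With limma, 0 of 10 were called in Sca1-high cells against 0% of all genes, 0 of 10 in basal cells against 0.00993%, 0 of 10 in luminal cells against 0%, and 0 of 10 over the 3 gates against 0%. At an unadjusted p under 0.05, Dll4 alone was counted in Sca1-high cells (1 of 10, against 2.41% of all genes) and in basal cells (1 of 10, against 2.2%), and 0 of 10 were counted in luminal cells (against 3.56%) and over the gates (against 2.62%). In Sca1-high cells Dll4 was 0.80 ± 0.23 higher in LY6D+ than in LY6D- libraries, in both mice (by 0.63 in mouse 1 and 0.97 in mouse 5). In basal cells it was -0.62 ± 0.23, with LY6D+ lower in both mice (-0.71 in mouse 3 and -0.53 in mouse 5), and in luminal cells the difference was 0.01 ± 0.23. The limma adjusted p of these 3 differences was 1. The probe set shared with Gm14207 did not show this pattern: its LY6D difference was -0.50 and 0.64 in the Sca1-high and 0.02 and -0.04 in the basal pairs, with mouse 5 second. The endothelial marker mean was 4.33 and 4.44 in basal LY6D+ and 6.43 and 6.35 in basal LY6D- libraries. It was 5.40 and 6.88 in Sca1-high LY6D+ and 6.67 and 5.59 in Sca1-high LY6D- libraries. The part of endothelial RNA in these LY6D differences of Dll4 was not tested. The Sca1-high pair of mouse 5 carries Ly6d signals opposite to its labels, and without that pair the Dll4 difference in Sca1-high cells is the 0.63 of mouse 1.

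The LY6D difference was also compared between gates with limma. For Sca1-high minus luminal, 0 of 10 members were called against 0% of all genes, and 1 of 10 (Dll4) against 2.92% had an unadjusted p under 0.05. For basal minus luminal 0 of 10 were called against 0%, and 0 of 10 against 2.45% had an unadjusted p under 0.05. For Sca1-high minus basal 0 of 10 were called against 0%, and 1 of 10 (Dll4) against 2.36% had an unadjusted p under 0.05.

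In Sca1-high cells 2 of 10 members (Dll4 and Hey1) had both LY6D+ libraries above both LY6D- ones, against 11.8% of all genes, and 2 of 10 (Notch4 and Dll1) had both below, against 17.2%. In basal cells 1 of 10 (Notch3) had both above, against 13.7%, and 2 of 10 (Jag2 and Dll4) both below, against 10.9%. In luminal cells 0 of 10 had both above, against 15.4%, and 2 of 10 (Notch1 and Hey1) both below, against 12.5%. Over the 6 mouse-by-gate pairs, 0 of 10 members moved one way in all, where 1.45% of all genes were higher in LY6D+ in every pair and 1.39% lower. Notch3 was higher in LY6D+ in 5 of 6 pairs, with differences from -0.42 to 0.28, and Notch2 in 1 of 6, with differences from -1.26 to 0.54. Jag1 was higher in 4 of 6: by 1.41 in Sca1-high cells of mouse 1, 1.32 in basal cells of mouse 3 and 1.47 in luminal cells of mouse 4, but by 0.04 in luminal cells of mouse 5, and its differences were -1.32 in Sca1-high and -0.61 in basal cells of mouse 5. All 3 pairs from mice 1, 3 and 4 were thus higher in LY6D+, and 1 of the 3 pairs from mouse 5 was. This split by mouse was seen in the values, and the share of all genes with it was not counted. Over the 3 gates the LY6D difference of Jag1 was 0.39 ± 0.61 (SE), with an unadjusted limma p of 0.538.

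**Figure D3:**
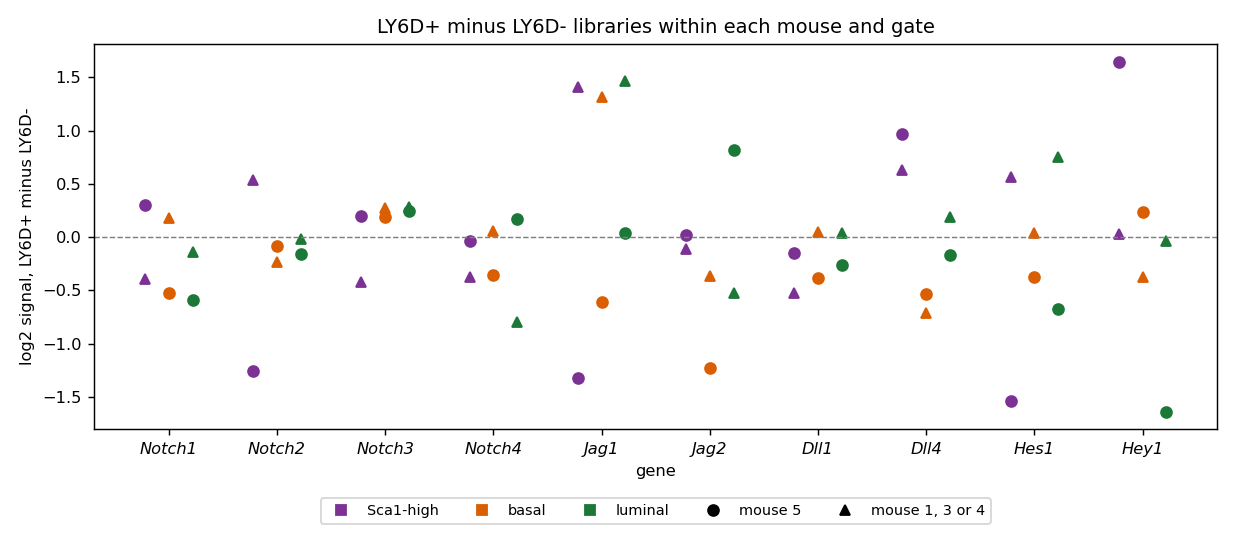
Difference in log2 signal between the LY6D+ and the LY6D- library of the same mouse and gate (vertical axis) for the 10 members (horizontal axis); colours are gates, circles mouse 5 and triangles mouse 1, 3 or 4. Both Sca1-high points of Dll4 (0.63 and 0.97) lie above 0 and both basal points (-0.71 and -0.53) below, and the Jag1 points run from -1.32 to 1.47.

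The 6 groups were also put in order by mean for each member. Jag1 ran from basal LY6D+ (7.90) and basal LY6D- (7.55) through Sca1-high LY6D+ (5.50), Sca1-high LY6D- (5.45) and luminal LY6D+ (5.38) to luminal LY6D- (4.62), and all 5 neighbouring pairs in this order overlapped. Dll4 ran from Sca1-high LY6D+ (5.62) through Sca1-high LY6D- (4.82), basal LY6D- (4.66), luminal LY6D+ (4.41) and luminal LY6D- (4.40) to basal LY6D+ (4.04), and only the first and last steps were free of overlap. Dll1 ran from basal LY6D- (5.41) through Sca1-high LY6D- (5.34), basal LY6D+ (5.24) and Sca1-high LY6D+ (5.00) to luminal LY6D- (4.56) and luminal LY6D+ (4.45), with a step free of overlap between the Sca1-high LY6D+ and luminal LY6D- groups. Notch3 had 2 steps free of overlap, below Sca1-high LY6D+ (5.13) and below luminal LY6D+ (4.86). Notch2 had 1, between luminal LY6D+ (5.31) and Sca1-high LY6D- (4.85), and Notch4 had 1, between Sca1-high LY6D+ (5.02) and basal LY6D- (4.80). For Notch1, Jag2, Hes1 and Hey1, as for Jag1, all 5 neighbouring pairs overlapped. Each group holds 2 libraries, and the share of all genes with steps free of overlap was not counted. For scale, between the LY6D classes of Sca1-high cells, 11.8% of all genes had both LY6D+ libraries above and 17.2% both below. The order of neighbours is not settled by these libraries, with or without overlap.

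Patterns across the 12 libraries are given as Pearson correlations, as a description, since the libraries share gates and mice. Among members, Jag1 and Hes1 were the most alike (0.866), followed by Notch2 and Hes1 (0.747), and Notch2 and Notch3 were the most opposed (-0.675). Jag1 and Hes1 correlated with the basal epithelial marker mean at 0.894 and 0.790, and Hey1 with the mean of 8 fibroblast markers at 0.792. The tested genes most like Jag1 were Cct5 (0.949), a subunit of the cytosolic chaperonin, Sik1 (0.938), a kinase, and Ybx3 (0.937), an RNA- and DNA-binding protein. Those most like Hes1 were Utp18 (0.951), a ribosome assembly factor, the amino acid transporter Slc7a1 (0.949) and Cct5 (0.935). For Dll1 they were Klhl20 (0.917), the connexin Gja1 (0.885) and Osgin1 (0.862), and for Dll4 Gm8234 (0.942), 4930503H13Rik (0.94) and Prap1 (0.922). The nearest gene to each other member was Arid2 for Notch1 (0.903), Immt for Notch2 (0.908), Olfr75-ps1 for Notch3 (0.946), Frmd8 for Notch4 (0.954), Chrm5 for Jag2 (0.907) and Gpr137b for Hey1 (0.908). All were picked as the highest of the 20135 genes tested, over only 12 libraries, which favours high values. Some were dim, against a table lower quartile of 2.98: Gm8234 was 2.45 to 4.49, Klhl20 2.75 to 3.95 and Chrm5 2.66 to 4.26.

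**Figure D4:**
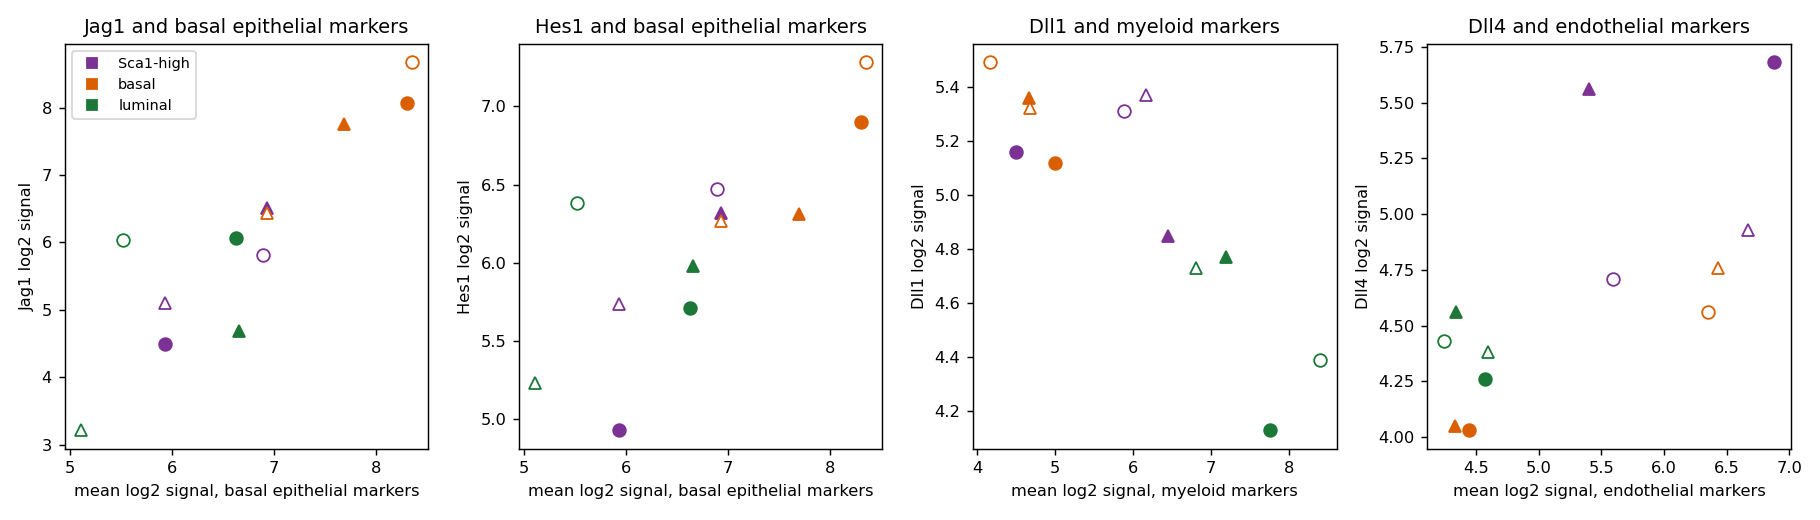
Log2 signal of a member (vertical axis) against the mean log2 signal of a marker list (horizontal axis) in the 12 libraries: Jag1 and Hes1 with basal epithelial, Dll1 with myeloid and Dll4 with endothelial markers; colours are gates, circles mouse 5, triangles the other mice, filled symbols LY6D+ and open symbols LY6D-. The correlations are 0.894, 0.790, -0.867 and 0.686, and the basal libraries of the endothelial panel split into 4.33 and 4.44 (LY6D+) and 6.43 and 6.35 (LY6D-).

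The rest of the pathway was read from 8 lists with 56 tested genes, and none of these genes was called with limma in any comparison. At an unadjusted limma p under 0.05 there were 4 of 56 in Sca1-high against luminal cells, where 8.41% of all genes were. There were 5 of 56 in basal against luminal cells (9.44% of all genes) and 3 of 56 in Sca1-high against basal cells (9.83%). None of these counts exceeded the share of all genes. The median differences over the 56 were -0.02, -0.06 and 0.06, against 0.07, -0.03 and 0.11 over all genes.

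Among 6 other ligands and relatives, 0 were called, and the largest differences were those of Dlk1, a non-canonical ligand (0.48 ± 0.21 in Sca1-high minus basal), and Mfap2, a microfibril protein (0.37 ± 0.20 in Sca1-high minus luminal). Of 4 ubiquitin ligases that drive ligand uptake, Mib1 was at -0.31 ± 0.24 in Sca1-high minus basal and Neurl1b at -0.22 ± 0.24 in Sca1-high minus luminal. Of 5 enzymes that put sugars on the receptors, the Fringe Lfng was at -0.62 ± 0.26 in basal minus luminal cells, with values of 4.95, 4.78, 4.68 and 4.43 in basal and 4.88, 4.69, 5.29 and 6.45 in luminal libraries; a single luminal library, LY6D- of mouse 5, stood above the others. The Fringe Mfng was at 0.30 ± 0.17 in Sca1-high minus basal. Of 9 genes of receptor cleavage, the gamma-secretase subunit Ncstn was at -1.09 ± 0.43 in Sca1-high minus luminal and the receptor-processing protease Furin at -0.73 ± 0.56 in Sca1-high minus basal. Furin ran from -1.29 to -0.17 and Lfng from -0.91 to -0.33 when each library was left out in turn, the values nearest 0 being without basal LY6D- of mouse 5 for Furin and without luminal LY6D- of mouse 5 for Lfng. The limma adjusted p of these 8 differences lay between 0.485 and 0.824.

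In the nuclear complex (7 genes), Rbpj, the DNA-binding partner of the receptor, was 4.94, 5.13, 5.14 and 4.99 in Sca1-high, 5.46, 7.19, 5.23 and 7.38 in basal, and 6.10, 6.56, 5.02 and 7.50 in luminal libraries. The Sca1-high values lay close together while the basal and luminal ones were spread over more than 2 log2 units, with mouse 5 the higher in each pair. Its difference was -1.26 ± 0.63 for Sca1-high minus basal with a limma adjusted p of 0.535, and that of the acetyltransferase Kat2b was -0.58 ± 0.26 for basal minus luminal (0.525). Of 6 corepressor genes, the histone deacetylase Hdac1 was 6.63, 7.97, 7.53 and 6.95 in basal and 4.19, 6.26, 4.38 and 5.91 in luminal libraries, without overlap, a difference of 2.09 ± 0.57 with a limma adjusted p of 0.228. The corepressor Spen was at -1.03 ± 0.33 in basal minus luminal (limma adjusted p of 0.322). Of 11 inhibitors and turnover genes, Numb, which counters Notch during cell fate choice, was 5.15, 4.47, 4.80 and 4.78 in Sca1-high and 7.74, 6.13, 5.57 and 7.41 in basal libraries. These did not overlap either, and the difference was -1.91 ± 0.56 with a limma adjusted p of 0.358. Hdac1 and Numb were named for the size of their gate differences, which favours a lack of overlap. Over all genes, 2.58% had all 4 basal libraries above the 4 luminal ones, and 2.26% had all 4 Sca1-high libraries below the 4 basal ones. The kinase Cdk8 was at -1.37 ± 0.68 in Sca1-high minus luminal (0.64). Of 8 other HES and HEY genes, all 8 had a positive difference in Sca1-high minus basal, with a median of 0.19 against 0.11 over all genes. The share of all genes with a positive difference was not counted. An unadjusted limma p under 0.05 was held by 0 of 8, against 9.83% of all genes. A positive difference was held by 6 of 8 after median centring, with mouse as a fixed block or without basal LY6D+ of mouse 5. It was held by 5 of 8 without the 3 libraries of mouse 5. Helt averaged 3.16 and 2.92 and Hes3 3.30 and 3.20 in Sca1-high and basal cells, near the table's lower quartile of 2.98. Hey2 was at 0.62 ± 0.21 in Sca1-high minus luminal and Hes7 at 0.38 ± 0.32 in Sca1-high minus basal, with limma adjusted p of 0.453 and 0.662.

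**Figure D5:**
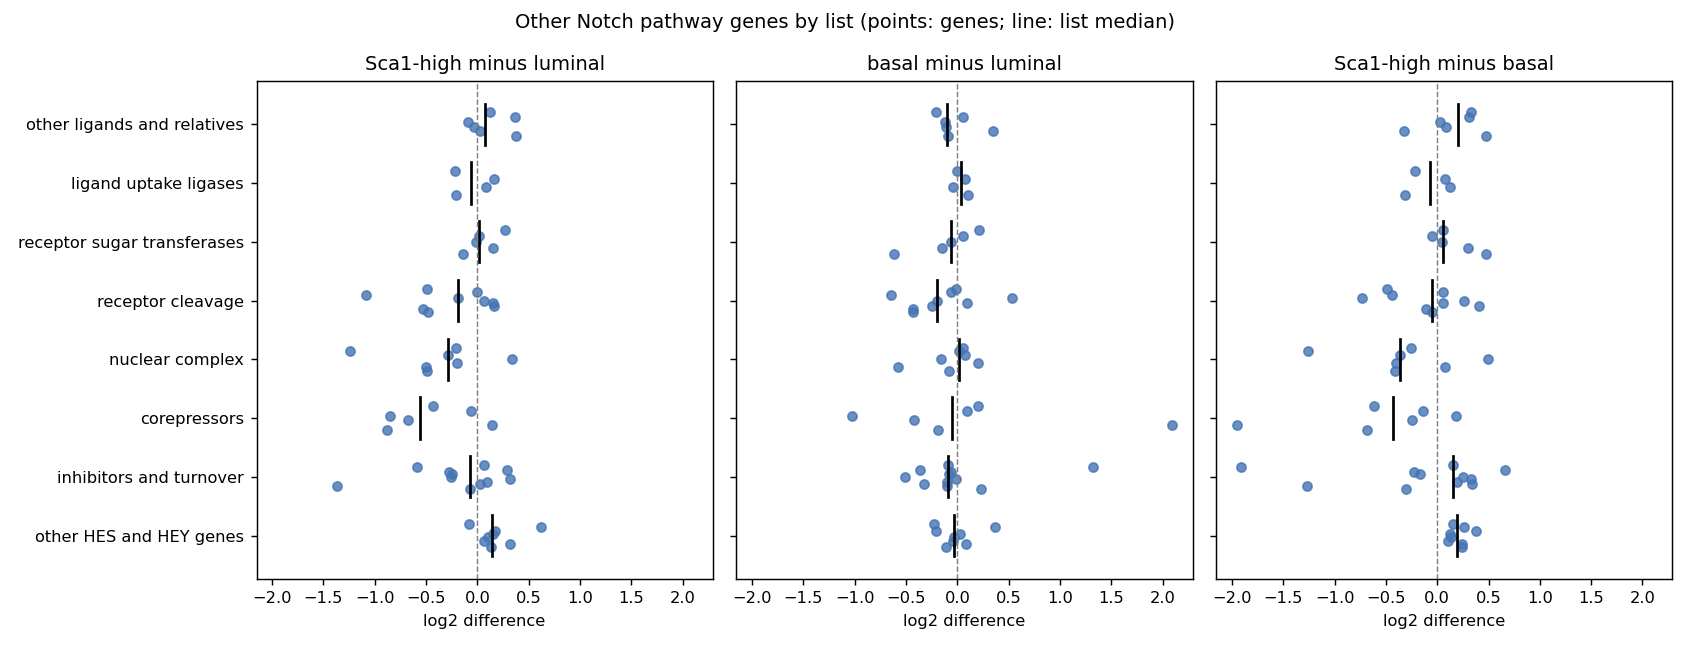
Differences between gates in log2 signal (horizontal axis) for the 56 other pathway genes, by list (rows); points are genes and vertical bars list medians. Most genes lie near 0, and the farthest are Hdac1 at 2.09 in basal minus luminal and Numb at -1.91 and Hdac1 at -1.95 in Sca1-high minus basal.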

How the data were processed

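Per the labels' protocols, a column kit was used to purify RNA, which the NuGEN Ovation V2 system amplified and labelled with biotin for the arrays. The authors deposited a log2 signal for every probe set, made with RMA and oligo per the submitters' processing notes (no version given). Scanner files and detection p-values were not used here, and the number of arrays limits the precision. None was missing, the range was 0.695 to 14.3, and no further normalization was applied.

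Of 41345 probe sets, 23521 carried a single gene symbol, for 22180 genes; the brightest was kept where a gene had several. Genes were tested when at least 2 libraries lay above the table's lower quartile (2.98), which left 20135 and all 10 members. limma 3.58.1 in R 4.3.3 fitted 6 group means to all 12 libraries (6 residual and 3.28 prior degrees of freedom), with Benjamini-Hochberg adjustment over all genes tested in a comparison and a threshold of 0.05; the code was tested on simulated data. A gate difference is the mean of its LY6D+ and LY6D- groups set against another gate's. The members and gene lists were chosen with earlier results of these data known. In each pathway list without a called gene, the 2 genes with the largest gate difference were named, and for each member the 3 genes with the highest correlation were found.

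The mouse number marks the same animal, so it pairs libraries; deviations from group means correlated at 0.149 (Sca1-high), 0.407 (basal) and 0.022 (luminal) between the paired libraries. The model left mouse out, so its p-values ignore that several libraries came from 1 mouse. The 22 alternatives were mouse as a fixed or random block, no filter or a stricter one, median centring, the mean of probe sets, a mean-variance trend with robust moderation, each library left out in turn, 3 or 2 libraries of mouse 5 left out, and only the groups compared. The one without the 2 Sca1-high libraries of mouse 5 was chosen after seeing the data, as was setting a probe set annotated to both Dll4 and Gm14207 beside the one used, with no fit.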

Additional observations from a re-analysis of the deposited data

Results flagged for a closer look

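In luminal cells, Hey1 was 6.08 in the LY6D- library of mouse 5 and 4.42 to 4.46 in the other 3 luminal libraries, so the gap to the nearest of the others was 0.975 of the whole range. This was the 1 library apart among 30 sets of 4 libraries examined (10 genes in 3 gates), and chance flags about 1 in 20 such sets.

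The LY6D difference of Dll4 ran in opposite directions in 2 gates: both Sca1-high pairs were higher in LY6D+ and both basal pairs lower. The Sca1-high minus basal difference of these differences was 1.42 ± 0.33 (SE), with an unadjusted limma p of 0.00185 and an adjusted p of 1; it was 1.25 without the Sca1-high libraries of mouse 5. The probe set annotated to both Dll4 and Gm14207 did not show it: there the same difference was 0.08. Hey1 was higher in LY6D+ in both Sca1-high pairs (0.03 and 1.65) and lower in both luminal pairs (-0.04 and -1.64), and the Sca1-high minus luminal difference was 1.68 ± 0.78, with an adjusted limma p of 1. Without the Sca1-high libraries of mouse 5 it was 0.87. These were 2 of 30 sets of paired gates examined (10 genes in 3 comparisons): 1 of 10 members for Sca1-high against luminal cells, where 10.9% of all genes ran in opposite directions, 0 of 10 for basal against luminal (10.2%) and 1 of 10 for Sca1-high against basal (12.3%). The members' count is thus near that of all genes.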

How the results depend on the processing

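Of the 10 members, 0 passed the threshold in any of the 11 comparisons under any of the 22 alternatives that gave a value, so no call changed; the lowest adjusted p was 0.0788, for Dll4 in Sca1-high against basal cells without basal LY6D- of mouse 3. The replicate block changed no call of a member: with mouse as a fixed block the difference of Jag1 was 2.31 in basal minus luminal and -3.21 in Sca1-high minus basal, and that fit compares gates through mouse 5 only. Of 64 single-gene differences, 17 took the opposite sign under at least 1 alternative, 55 of 1394 recomputed values in all, 0 of them past the threshold; the cause was not tested. For Sca1-high minus luminal, the opposite values were -0.90 for Jag1, -0.34 for Hes1 and -0.18 for Hey1 with the fixed block, -0.01 for Hes1 with the random block, -0.07 for Notch1 and -0.04 for Hes1 after centring, and -0.02 for Notch1 without the Sca1-high libraries of mouse 5. Without 3 libraries of mouse 5 (basal LY6D+, basal LY6D-, luminal LY6D-) they were -0.19 for Notch1, -0.36 for Notch2, 0.01 for Dll4 and 0.53 for Hey1 in basal minus luminal, 0.22 for Notch1 and 0.03 for Jag2 in Sca1-high minus basal, and 0.06 for Hes1 and 0.15 for Hey1 for LY6D+ minus LY6D- over the gates. Without the 2 Sca1-high libraries of mouse 5 they were 0.09 for Jag2 in Sca1-high minus basal, and 0.10 for Notch2 and 0.15 for Hes1 over the gates. The probe set annotated to both Dll4 and Gm14207 gave 0.09 for Dll4 in basal minus luminal, without a fit. Leaving out each library in turn gave, for Sca1-high minus luminal, Notch1 -0.09 to 0.11, Jag1 -0.23 to 1.18, Hes1 -0.30 to 0.39, Hey1 -0.24 to 0.57 and Neurl1b -0.48 to 0.03. For basal minus luminal it gave Notch1 -0.12 to 0.40, Notch2 -0.23 to 0.59, Notch3 -0.03 to 0.12, Notch4 -0.34 to 0.01, Dll4 -0.13 to 0.02 and Hey1 -0.57 to 0.24. For Sca1-high minus basal it gave Notch1 -0.39 to 0.13 and Jag2 -0.40 to 0.03, and, with the sign kept, Notch2 -1.33 to -0.42, Rbpj -1.80 to -0.72 and Hes7 0.10 to 0.67, and over the gates Notch2 -0.51 to 0.10, Jag1 -0.08 to 0.86, Hes1 -0.43 to 0.03 and Hey1 -0.29 to 0.25. Centring moved the median of all genes by -0.127 in Sca1-high minus basal. Genes called over the table moved by more than 1.5 times. In Sca1-high against luminal cells there were 28, against 104 with the fixed block, 17 after centring, 13 with only the groups compared, 0 without the 3 libraries of mouse 5 and 13 to 165 without 1 library. In basal against luminal cells there were 84, against 31 after centring, 0 without the 3 libraries and 15 to 255 without 1. In Sca1-high against basal cells there were 2, against 80 with the fixed block, 10 without the 2 Sca1-high libraries, 4 with trend and robust moderation, 1 with the mean of probe sets or only the groups compared, and 2 to 133 without 1. The F test called 7, against 3 with the fixed block, 11 with the random block, 12 with trend and robust moderation, 21 without the 2 Sca1-high libraries, 0 without the 3 libraries and 1 to 51 without 1. For LY6D in basal cells there were 2, against 0 with the fixed block, the mean of probe sets, trend and robust moderation, only the groups compared or without the 3 libraries, 5 without the 2, and 0 to 3 without 1. For LY6D in luminal cells there were 0, against 1 with the random block, 2 with trend and robust moderation, 1 without the 3 libraries and 0 to 70 without 1. LY6D counts without 1 library were 0 to 17 in Sca1-high cells, 0 to 2 over the gates (1 without the 2 libraries) and 0 to 14 at most for differences between gates.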

Other observations

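Lfng, the Fringe enzyme that tunes which ligands a Notch receptor answers to, was lower in LY6D+ than in LY6D- luminal libraries (4.88 and 4.69 against 5.29 and 6.45), a difference of -1.09 ± 0.36 (SE) with an adjusted limma p of 1. It was -0.50 without luminal LY6D- of mouse 5 and -1.67 without luminal LY6D- of mouse 4 (adjusted limma p of 1 and 0.0844). In Sca1-high and basal cells its LY6D difference was -0.08 ± 0.36 and 0.31 ± 0.36. The luminal LY6D- library of mouse 5, which held its highest value, also held the highest luminal values of Hey1 (6.08), Spen (7.23), Rbpj (7.50) and Ptprc (8.90). This library had the highest myeloid marker mean (8.40) and the fewest genes above the table's lower quartile (17585) of all libraries. In luminal cells, 12.5% of all genes had both LY6D+ libraries below both LY6D- ones. The part of this library's make-up in these values was not tested.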
